A study of Homo sapiens with 12 samples.

Results

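A row of 6 neighbouring genes of human chromosome 7q36 was followed across 12 bulk RNA-seq libraries: ACTR3C, LRRC61, ZBED6CL, RARRES2, REPIN1 and ZNF775. They are 6 of the 60624 genes in the deposited tables. They were picked as the neighbourhood of LRRC61, a gene with almost no reads in one wild type, to ask how far along the chromosome that near absence reaches. The levels in the CLEC16A experiment therefore chose them, and their values there are a description with no test. The NKX2-2 experiment took no part in the choice, and there the genes were tested.

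The cells were islets made in culture from expandable pancreatic progenitors and sampled at day 8; the source was MEL1, an established human embryonic stem cell line. There were 3 libraries each of CLEC16A knockout (KO), CLEC16A wild type (WT), NKX2-2 KO and NKX2-2 WT. CLEC16A encodes a protein of autophagy and mitophagy, and NKX2-2 a transcription factor of islet development. All groups had shared the same media: the progenitors were grown on feeder cells with EGF, bFGF, 616452 and I-BET151, and the R6 medium held zinc sulfate, heparin, 616452, T3, LDN-193189, Compound E, vitamin C and forskolin. The labels name neither the edited clones nor the feeder, so a difference between cell lines and an effect of the knockout cannot be told apart. Whether replicates were cultured separately is not labelled either, and the p-values then cover no more than the spread among libraries, which may be technical.

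Total counts were 31364272 to 33763795 per library in the CLEC16A experiment and 16157481 to 20649976 in the NKX2-2 experiment. The listed genes held 99.7% to 99.8% of the full TPM total (a level per transcript length) in the CLEC16A libraries. In the NKX2-2 libraries they held 41.4% to 47.2%. Levels are therefore tested only within an experiment. Ratios between genes and the likeness to LRRC61, which span both experiments, are descriptions. All 10 islet endocrine markers had counts in every group. So had all 12 liver and all 10 mesenchyme markers, so the presence of counts does not identify the cells. CLEC16A itself had 36.7 ± 1.34 CPM (counts scaled to library size) in CLEC16A KO and 32.3 ± 3.35 in CLEC16A WT (SD, n = 3 each; edgeR adjusted p = 0.0949, and 0.0335 without WT replicate 1, with KO the higher). NKX2-2 had 76.1 ± 13.7 CPM in NKX2-2 KO and 95.2 ± 1.64 in NKX2-2 WT (SD, n = 3 each; edgeR adjusted p = 0.061, and 0.0023 without KO replicate 1). It passed as lower in KO in 6 of 15 alternatives, among them DESeq2 (adjusted p = 0.0416) and limma on log2(TPM + 1), where the change was -0.74 on the log2 scale (adjusted p = 0.0056; 34.6 ± 8.76 TPM in KO and 57.4 ± 3.17 TPM in WT, SD, n = 3 each). CLEC16A was not lower in its KO in any of its 15, and neither transcript was lost, so transcript levels do not settle the knockout labels.

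LRRC61 encodes a leucine-rich repeat protein. ZBED6CL is named for its likeness to the C-terminal part of ZBED6. ACTR3C is a relative of ACTR3, a subunit of the Arp2/3 complex that nucleates branched actin filaments. RARRES2 encodes chemerin, a secreted attractant of immune cells and a fat and liver hormone, which was found as a retinoid-induced gene and acts on the receptors CMKLR1 and GPR1 (CMKLR2), while CCRL2 binds it without signalling. REPIN1 and ZNF775 encode zinc finger proteins. Neighbouring genes whose starts lie head to head on opposite strands can share one start region, and genes that run towards each other meet at their ends.

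In GENCODE 29 on GRCh38, ACTR3C (ENSG00000106526) spans chr7:150243916-150323725 on the minus strand and LRRC61 (ENSG00000127399) spans chr7:150322639-150338150 on the plus strand. Their start regions overlap, and their exons share 390 bases on opposite strands. ZBED6CL (ENSG00000188707, chr7:150329789-150332721, plus strand) is a single exon inside an LRRC61 intron, between LRRC61 exons that end at 150328786 and start at 150336718, and shares 0 bases with LRRC61 exons. RARRES2 (ENSG00000106538, chr7:150338317-150341674, minus strand) runs towards LRRC61, and the ends of both genes lie 167 bases apart. REPIN1 (ENSG00000214022, chr7:150368189-150374044) and ZNF775 (ENSG00000196456, chr7:150379335-150398631) follow on the plus strand. The sources used here do not say whether counting used strand. Reads of ACTR3C and LRRC61 in the overlap, and of ZBED6CL and unspliced LRRC61, cannot be told apart.

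The 250 bases before 3 RefSeq gene starts are shown (GRCh38.p14, 5′ to 3′ on the gene's own strand), since LRRC61 and ACTR3C start head to head and were near absent together in CLEC16A WT, while RARRES2, the next gene along, was not. Capitals mark each CG dinucleotide. The windows are chr7:150323105-150323354 for LRRC61 (plus strand), chr7:150323546-150323795 for the ACTR3C start nearest to it (minus strand) and chr7:150341630-150341879 for RARRES2 (minus strand).
LRRC61: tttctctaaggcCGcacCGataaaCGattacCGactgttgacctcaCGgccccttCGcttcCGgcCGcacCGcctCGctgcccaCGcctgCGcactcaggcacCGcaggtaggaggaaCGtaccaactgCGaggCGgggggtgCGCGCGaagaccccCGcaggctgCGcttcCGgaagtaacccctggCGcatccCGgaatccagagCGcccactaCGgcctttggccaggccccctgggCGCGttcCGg
ACTR3C: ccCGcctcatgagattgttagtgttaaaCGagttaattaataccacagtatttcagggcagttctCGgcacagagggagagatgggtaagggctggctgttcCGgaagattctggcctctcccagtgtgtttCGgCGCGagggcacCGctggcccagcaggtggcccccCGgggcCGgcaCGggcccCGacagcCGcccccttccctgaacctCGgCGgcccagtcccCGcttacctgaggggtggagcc
RARRES2: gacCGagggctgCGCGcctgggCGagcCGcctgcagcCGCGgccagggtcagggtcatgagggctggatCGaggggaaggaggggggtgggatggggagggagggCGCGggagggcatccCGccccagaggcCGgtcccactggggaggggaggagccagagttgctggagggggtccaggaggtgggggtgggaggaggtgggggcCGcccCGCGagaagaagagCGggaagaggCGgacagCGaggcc

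The LRRC61 and ACTR3C starts next to these windows lie 190 bases apart. The LRRC61 window holds 29 CG dinucleotides, the ACTR3C window 16 and the RARRES2 window 18, where the median over the 35116 windows of this length is 11. At least as many as in LRRC61 were found in 14.1% of all windows, at least as many as in ACTR3C in 41.0% and at least as many as in RARRES2 in 36.8%. The ZNF775 window also holds 29. The windows before 4 REPIN1 starts hold 4, 29, 38 and 4, and those before 3 further ACTR3C starts hold 19, 12 and 1. ZNF775 and REPIN1 kept their reads in CLEC16A WT, and whether CG content bears on the near absence was not tested. The letters CCGGAAG, the core of ETS-family motifs, were searched on both strands after the sequences had been read. They match 3 times in the LRRC61 window, in 2 stretches because a pair of matches on opposite strands overlap, and once in the ACTR3C window shown. They match in none of the windows before the 3 further ACTR3C starts or before RARRES2, REPIN1 and ZNF775, and 8.52% of all windows hold them. A match is a description and no evidence of binding.

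In CLEC16A WT, reads of LRRC61, of ZBED6CL inside it and of ACTR3C beside it were at or near 0, while CLEC16A KO and both NKX2-2 groups had reads of all of them. On one side the next gene, RARRES2, whose end lies 167 bases from that of LRRC61, had at least 420 counts in each CLEC16A WT library. Counts per gene do not place an edge between the genes. REPIN1 and ZNF775 were higher in CLEC16A WT than in CLEC16A KO. All 6 genes had groups that did not overlap, 4 higher and 2 lower in KO, where 53.8% of the 19958 genes tested in that experiment had groups that did not overlap, 27.4% higher and 26.4% lower in KO. The genes were chosen from this contrast, so nothing is read from that count.

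LRRC61 had 1145, 1182 and 959 counts in the CLEC16A KO libraries, against 5, 0 and 0 in the CLEC16A WT libraries. These are 34.8 ± 3.51 CPM and 0.0478 ± 0.0828 CPM (SD, n = 3 each). The 5 WT counts all came from replicate 1, and the deposited TPM of LRRC61 is 0 in all 3 WT libraries. Over the group, 3286 counts in KO stand against 5 in WT, a ratio of 704 after scaling (95% counting interval 301 to 2168). The interval covers counting error only.

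ZBED6CL had 1157, 1236 and 1003 counts in the CLEC16A KO libraries, against 2, 8 and 0 in the CLEC16A WT libraries. The lowest KO library lies at 32.2 CPM and the highest WT library at 0.241 CPM, and the deposited TPM is again 0 in all WT libraries. The summed counts of 3396 in KO and 10 in WT give a ratio of 364 after scaling (95% counting interval 197 to 759). ACTR3C had 95, 89 and 97 counts in CLEC16A KO, against 0, 0 and 0 in CLEC16A WT. Against a floor of 3 counts per library, ACTR3C was at least 33.4-fold higher in KO. That floor stands at 0.0892 CPM in CLEC16A WT.

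RARRES2 had 1065, 1314 and 980 counts in the CLEC16A KO libraries, against 501, 543 and 420 in the CLEC16A WT libraries. That is 35.6 ± 4.78 CPM and 14.5 ± 1.82 CPM (SD, n = 3 each), a 2.45-fold higher level in KO with no overlap. RARRES2 thus kept a measurable level in the WT in which LRRC61, its neighbour, was nearly absent. REPIN1 had 6177, 6701 and 5638 counts in CLEC16A KO, against 7297, 7331 and 7263 in CLEC16A WT. On the CPM scale these were 196 ± 13.9 and 217 ± 6.71 (SD, n = 3 each), a log2 ratio of -0.15, with the closest KO and WT libraries at 208 and 209 CPM. ZNF775 had 380, 491 and 411 counts in CLEC16A KO, against 791, 766 and 700 in CLEC16A WT. Its levels of 13.6 ± 1.52 and 22.4 ± 0.973 CPM (SD, n = 3 each) give a log2 ratio of -0.72, and each KO library lies below each WT library.

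**Figure D1:**
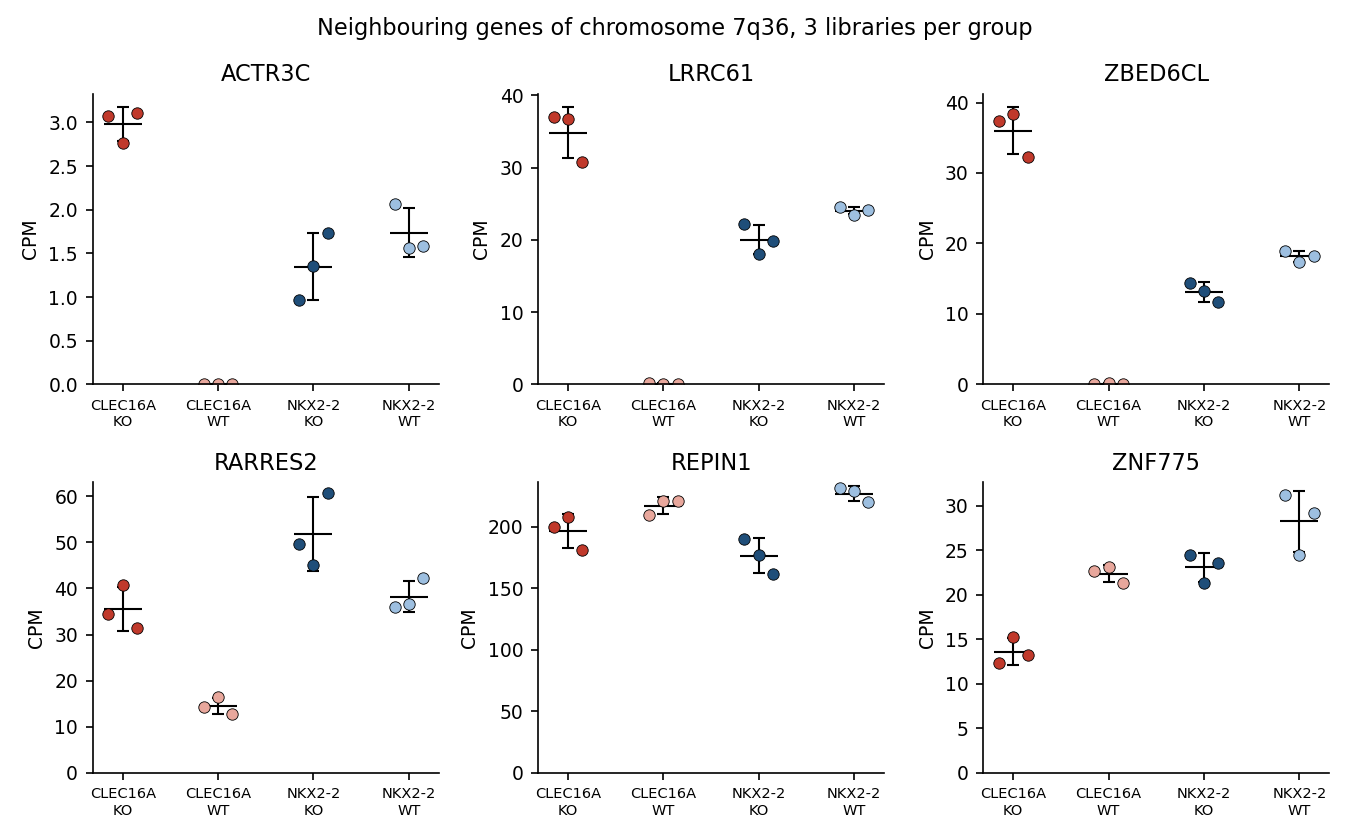
CPM of the 6 genes in each library (points) with the mean and SD of each group (bars), the CLEC16A KO and WT groups left and the NKX2-2 KO and WT groups right. ACTR3C, LRRC61 and ZBED6CL sit at or near 0 in the 3 CLEC16A WT libraries, whereas RARRES2, REPIN1 and ZNF775 do not.

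Per transcript length, the genes spanned a wide range in CLEC16A KO. REPIN1 averaged 212 ± 17.9 TPM, RARRES2 87.9 ± 16.7, LRRC61 61.0 ± 3.16, ZBED6CL 16.4 ± 1.84, ZNF775 12.2 ± 0.792 and ACTR3C 5.52 ± 1.54 (SD, n = 3). In that order no neighbouring levels lay within their SDs of each other. In CLEC16A WT the measurable genes were REPIN1 at 240 ± 5.17 TPM, RARRES2 at 39.0 ± 4.67 and ZNF775 at 21.9 ± 1.20 (SD, n = 3). In NKX2-2 KO the order was REPIN1 at 60.4 ± 8.19 TPM, RARRES2 at 53.2 ± 8.40, LRRC61 at 11.8 ± 1.56, ZNF775 at 8.12 ± 1.04, ZBED6CL at 2.43 ± 0.292 and ACTR3C at 0.937 ± 0.638 (SD, n = 3). REPIN1 and RARRES2 there lay within their spread. In NKX2-2 WT the same order held, with REPIN1 at 80.4 ± 2.75 TPM, RARRES2 at 40.3 ± 4.70, LRRC61 at 14.8 ± 0.890, ZNF775 at 9.42 ± 1.15, ZBED6CL at 3.41 ± 0.365 and ACTR3C at 1.25 ± 0.0416 (SD, n = 3).

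The proportion of ZBED6CL to LRRC61 counts was higher in CLEC16A KO than in every NKX2-2 library. Per LRRC61 count, ZBED6CL had 1.01 to 1.05 counts in the CLEC16A KO libraries, 0.586 to 0.737 in NKX2-2 KO and 0.738 to 0.769 in NKX2-2 WT. On the TPM scale the gap was narrower. ZBED6CL came to 25.1% to 28.6% of LRRC61 in CLEC16A KO, 19.2% to 23.0% in NKX2-2 KO and 21.8% to 24.3% in NKX2-2 WT. The ACTR3C counts came to 7.53% to 10.1% of the LRRC61 counts in CLEC16A KO, to 4.35% to 8.70% in NKX2-2 KO and to 6.56% to 8.41% in NKX2-2 WT, ranges that overlap. Counts per TPM of the 6 genes in the NKX2-2 tables were 0.921 to 1.18 of those in the CLEC16A tables, relative to the median gene, which is no large shortfall in either set of tables. The value was 1.13 for LRRC61 and 0.953 for ZBED6CL. Whether this accounts for any of the gap in their count ratio was not tested.

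In the NKX2-2 experiment all 6 genes had counts in every library, and 3 of the 6 passed the test: RARRES2 rose, and ZBED6CL and REPIN1 fell in NKX2-2 KO. Over all 17436 genes tested, 33.4% passed, 16.6% higher and 16.8% lower in KO. Groups did not overlap for 5 of the 6 genes, all but ACTR3C, 1 higher and 4 lower in KO, where 45.5% of all tested genes had groups that did not overlap, 23.1% higher and 22.5% lower in KO. The median log2 fold change of the 6 genes was -0.33, against 0.03 over all genes tested.

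ZBED6CL had 239, 266 and 202 counts in NKX2-2 KO, against 393, 343 and 323 in NKX2-2 WT. The level fell to 13.1 ± 1.38 CPM in KO, against 18.1 ± 0.777 CPM in WT (SD, n = 3 each), a log2 fold change of -0.47 (SE 0.13, edgeR adjusted p = 0.0125). LRRC61, which holds it, had 368, 361 and 345 counts in NKX2-2 KO, against 511, 465 and 427 in NKX2-2 WT. Each KO library lay below each WT library on the CPM scale, with 20.04 ± 2.05 and 24.05 ± 0.528 CPM (SD, n = 3 each), but the gene did not pass (log2 fold change -0.26, SE 0.12, edgeR adjusted p = 0.106, and 0.0336 without KO replicate 1). ACTR3C had 16, 27 and 30 counts in NKX2-2 KO, against 43, 31 and 28 in NKX2-2 WT. Its CPM groups overlapped, and the log2 fold change of -0.37 had an SE of 0.31 (edgeR adjusted p = 0.389), too wide to tell a fall from none.

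RARRES2 had 824, 901 and 1052 counts in NKX2-2 KO, against 749, 723 and 747 in NKX2-2 WT. It rose to 51.8 ± 8.04 CPM in KO, against 38.2 ± 3.41 CPM in WT (SD, n = 3 each; log2 fold change 0.44, SE 0.13, edgeR adjusted p = 0.0204). The highest KO library, replicate 3, had 60.7 CPM and the lowest, replicate 2, had 45.1 CPM, against 42.2 CPM in the highest WT library. The call was lost when some single libraries were left out. The edgeR adjusted p was 0.0755 without KO replicate 3 (log2 fold change 0.31). It was 0.105 without WT replicate 1 (0.38) and 0.0954 without WT replicate 2 (0.39). RARRES2 passed in 11 of 15 alternatives.

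REPIN1 had 3154, 3545 and 2805 counts in NKX2-2 KO, against 4817, 4522 and 3894 in NKX2-2 WT. It fell to 176 ± 14.0 CPM in KO, against 227 ± 6.10 CPM in WT (SD, n = 3 each; log2 fold change -0.36, SE 0.098, edgeR adjusted p = 0.0127, and 0.0541 without KO replicate 2). ZNF775 had 406, 425 and 408 counts in NKX2-2 KO, against 648, 484 and 516 in NKX2-2 WT. Its levels of 23.1 ± 1.64 CPM in KO and 28.2 ± 3.42 CPM in WT (SD, n = 3 each) did not overlap, by the narrow margin of 24.4 and 24.5 CPM, and the gene did not pass (log2 fold change -0.29, SE 0.13, edgeR adjusted p = 0.0922). In limma on log2(TPM + 1) with no filter on low values, none of the 3 calls held, with adjusted p = 0.106 for ZBED6CL, 0.154 for RARRES2 and 0.068 for REPIN1.

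To see how far the near absence reaches, 69 flanking genes whose starts lie within 1 Mb of that of LRRC61 were examined. None of the 69 had at most 10 counts in each CLEC16A WT library together with at least 20 in each CLEC16A KO library, the pattern of ACTR3C, LRRC61 and ZBED6CL. Over all 60624 genes 92 had it, those 3 included, a share too small for its absence among 69 genes to set them apart. Of these 69, 33 had under 20 counts over all 12 libraries, too few to compare. In the CLEC16A experiment 31 were measurable, of which 5 rose, 14 fell and 12 did not pass. Over all 19958 genes tested there, 45% passed, 23.7% higher and 21.3% lower in KO. With limma on log2(TPM + 1) the split over all genes was 3111 higher and 4714 lower, against 4732 and 4253 in edgeR, and the median gene shifted to -0.12. The flanking genes had a median log2 fold change of -0.22 in edgeR, against -0.01 over all genes.

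The changes among the flanking genes ran in both directions and were small beside those of LRRC61, ZBED6CL and ACTR3C. On the side before ACTR3C, ZNF467, a zinc finger gene, fell the most of the named flanking genes: 1.99 ± 0.313 CPM in CLEC16A KO and 15.6 ± 0.515 CPM in CLEC16A WT (SD, n = 3 each), a log2 fold change of -2.96 (SE 0.16, edgeR adjusted p = 7.92e-13). That is the opposite direction to LRRC61. SSPO, which encodes the secreted protein SCO-spondin, fell by 1.88 on the log2 scale, and ATP6V0E2, a subunit gene of the vacuolar proton pump, by 0.90. The antisense gene ATP6V0E2-AS1 fell by 0.85, and its reads cannot be told apart from those of ATP6V0E2 without strand. KRBA1 fell by 0.51 and ZNF746 by 0.25.

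On the side after ZNF775, AOC1, which encodes diamine oxidase, rose to 488 ± 18 CPM in CLEC16A KO, against 193 ± 10.4 CPM in CLEC16A WT (SD, n = 3 each), a log2 fold change of 1.34 (SE 0.064, edgeR adjusted p = 1.02e-13). The overlapping membrane protein genes TMEM176A and TMEM176B rose by 0.75 and 0.59 on the log2 scale. ATG9B, a gene of the autophagy lipid scramblase family, rose by 1.44. KCNH2, a potassium channel gene, fell by 0.90, AGAP3 by 0.56, CDK5, a neuronal kinase gene, by 0.49, ASIC3, an acid-sensing channel gene, by 0.60, ABCF2 by 0.44 and SMARCD3, a chromatin remodelling subunit gene, by 0.40. The nearest flanking genes that were abundant enough to be named start 449.7 kb before LRRC61 (ATP6V0E2) and 469 kb after it (TMEM176B), so RARRES2, REPIN1 and ZNF775 are the closest genes of that abundance.

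Some of these calls were lost when a single library was left out or with another method. The edgeR adjusted p of ZNF746 was 0.0601 without KO replicate 3 and 0.0631 without WT replicate 3, and that of ASIC3 was 0.0772 and 0.0917 without the same libraries. For ABCF2 it was 0.0578 without KO replicate 1, 0.0902 without KO replicate 3, 0.0706 without WT replicate 1 and 0.0557 without WT replicate 3. For SMARCD3 it was 0.103 without KO replicate 1, 0.151 without KO replicate 3, 0.0947 without WT replicate 1 and 0.106 without WT replicate 2. SMARCD3 did not pass in DESeq2 (adjusted p = 0.0688) either, nor in limma on log2(TPM + 1) (0.0702). In limma ABCF2 did not pass (0.0605), and with no filter ATG9B did not (0.128).

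**Figure D2:**
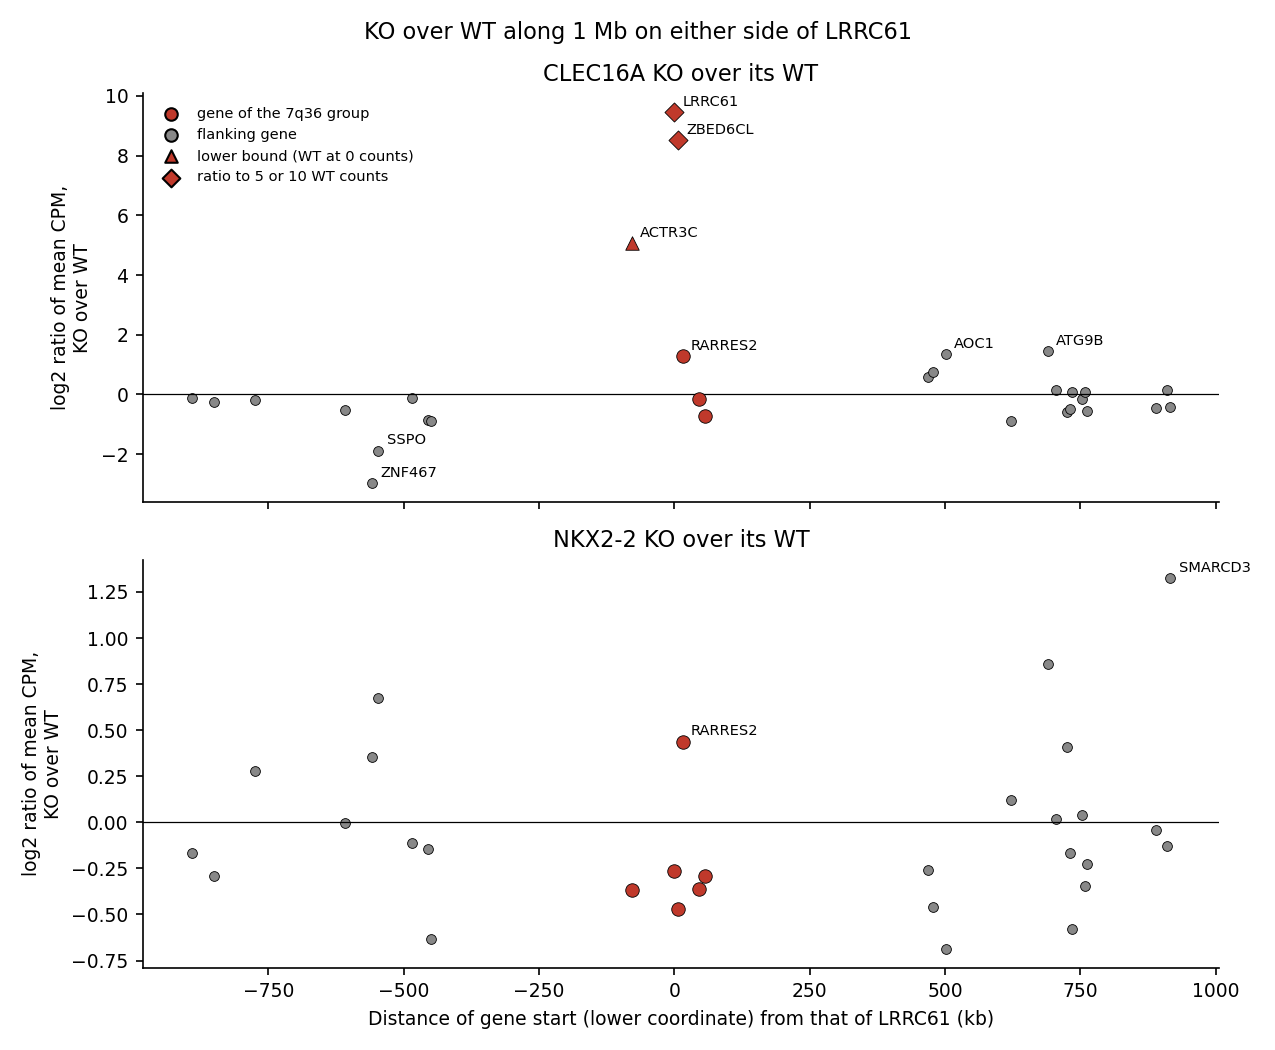
Log2 ratio of mean CPM, KO over WT, of the 6 genes (red) and the 24 named flanking genes (grey) against the distance of their lower coordinate from that of LRRC61 in kb, for the CLEC16A experiment above and the NKX2-2 experiment below, on different vertical scales. LRRC61 and ZBED6CL (diamonds, ratios of 704 and 364 to 5 and 10 WT counts) and ACTR3C (triangle, a lower bound of 33.4-fold) stand above every flanking gene in the CLEC16A experiment and among them in the NKX2-2 experiment.

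In the NKX2-2 experiment 28 flanking genes were measurable, of which 3 rose, 5 fell and 20 did not pass, with a median log2 fold change of -0.14. Of all genes tested there 16.6% rose and 16.8% fell, 33.4% in all, and 8 of 28 is near that share. SMARCD3 rose to 24.5 ± 2.02 CPM in NKX2-2 KO, against 9.77 ± 0.426 CPM in NKX2-2 WT (SD, n = 3 each), a log2 fold change of 1.32 (SE 0.12, edgeR adjusted p = 3.59e-06). SSPO rose by 0.66. AOC1 fell by 0.69, ATP6V0E2 by 0.64, the anion exchanger gene SLC4A2 by 0.58, TMEM176A by 0.46 and TMUB1 by 0.34. The edgeR adjusted p of SSPO was 0.126 without KO replicate 1, 0.127 without WT replicate 2 and 0.0992 without WT replicate 3, and that of TMEM176A was 0.0648 without KO replicate 2. For TMUB1 it was 0.155 without KO replicate 2, 0.0646 without KO replicate 3, 0.0657 without WT replicate 2 and 0.17 without WT replicate 3. SSPO did not pass in DESeq2 (adjusted p = 0.0894), nor TMUB1 with upper-quartile scaling (0.104) or in limma on log2(TPM + 1) (0.0541), nor TMEM176A in limma with no filter (0.111). Without WT replicate 2, 5 flanking genes in place of 8 passed.

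Elsewhere in the genome the pattern of LRRC61 was rare. With at most 3 counts in each CLEC16A WT library and at least 20 in each of the other 9 libraries, 4 genes met it, none of them among the 6. LRRC61 missed it with 5 counts in CLEC16A WT replicate 1, ZBED6CL with 8 in CLEC16A WT replicate 2, and ACTR3C with 16 in NKX2-2 KO replicate 1. On the TPM scale, with at most 0.1 in each CLEC16A WT library and at least 1 in each of the others, 4 genes met it, LRRC61, ZBED6CL and ZNF615 among them. Limits of at most 10 and at least 15 counts, chosen after the values were seen so as to take in those 3, gave 13 genes. The reverse pattern, at most 3 counts in each CLEC16A KO library, was met by 2 genes.

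Among these 4 genes, likeness to LRRC61 over the 12 libraries was measured, and ZNF615, ZFP42 and ZFP82 are the ones with a gene symbol. Their root mean square differences from LRRC61 in log2(CPM + 0.5) were 1.45, 1.86 and 2.48, and that of the other gene, which has a clone name alone, was 1.46. Genes outside the limits, ZBED6CL included, were not ranked. ZNF615 and ZFP82 are zinc finger genes on chromosome 19, and ZFP42 (REX1), a zinc finger gene known as a marker of pluripotent cells, is on chromosome 4. ZNF615 had 205, 253 and 215 counts in CLEC16A KO, against 0, 0 and 0 in CLEC16A WT, with 124 to 236 in the NKX2-2 libraries. ZFP42 had 261, 277 and 211 in CLEC16A KO, against 0, 0 and 0 in CLEC16A WT, and ZFP82 had 181, 115 and 142, against 0, 0 and 2. These values chose the genes and carry no test.

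**Figure D3:**
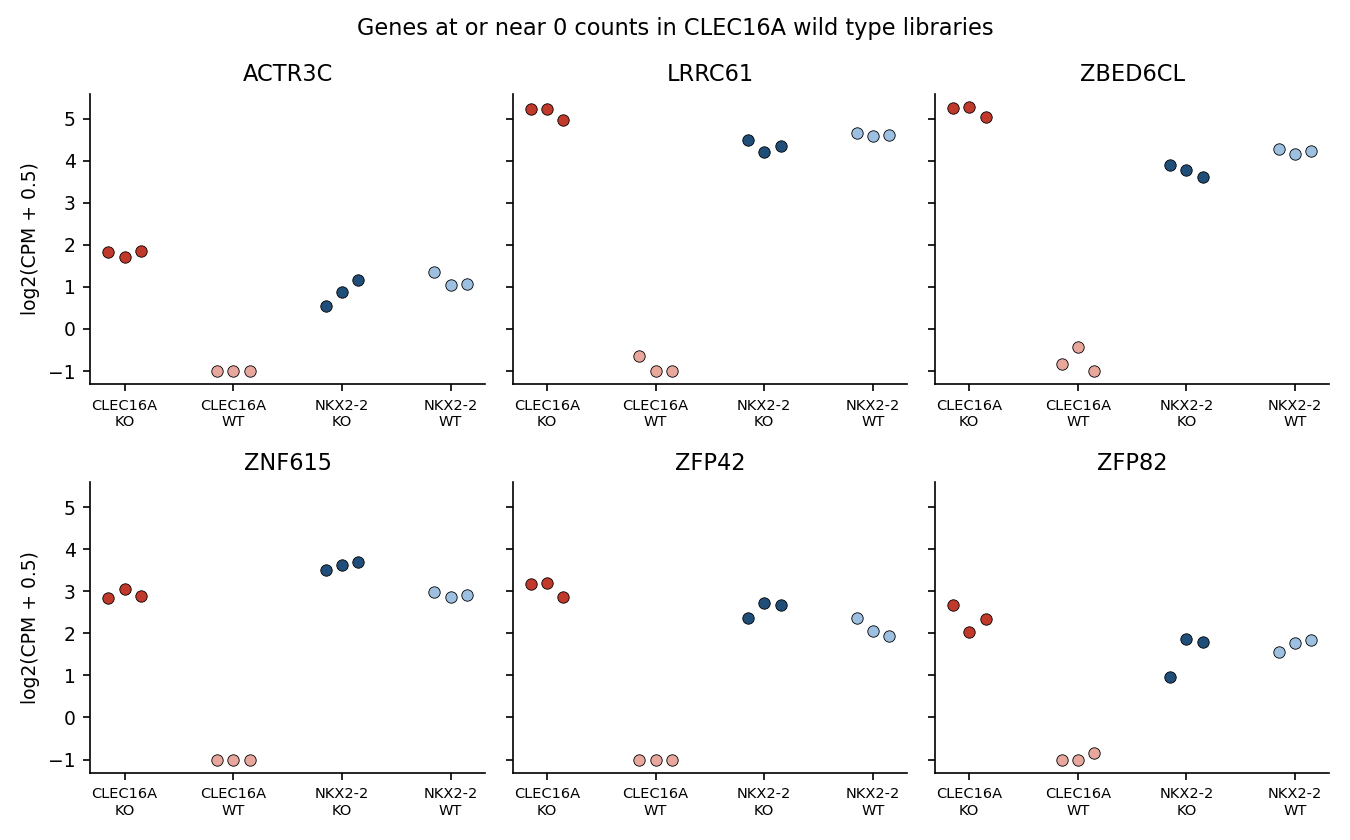
Log2(CPM + 0.5) of the 3 near-absent genes of chromosome 7 (upper row) and of the 3 genes with a gene symbol among the 4 elsewhere that met the first count limits (lower row) in each library, with CLEC16A KO and WT left and NKX2-2 KO and WT right. A library at 0 counts lies at -1, where all 3 CLEC16A WT libraries of ACTR3C, ZNF615 and ZFP42 sit.

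For ACTR3C, the other genes of the Arp2/3 complex were set beside it. In the CLEC16A experiment 4 of the 10 rose, 2 fell and 4 did not pass, with a median log2 fold change of 0.09. Over all genes tested 45% passed, 23.7% higher and 21.3% lower in KO. The core subunit gene ACTR3 rose to 273 ± 4.42 CPM in CLEC16A KO, against 188 ± 6.05 CPM in CLEC16A WT (SD, n = 3 each), a log2 fold change of 0.54 (SE 0.060, edgeR adjusted p = 1.42e-07). ARPC1A rose by 0.41, ARPC2 by 0.33 and ARPC3 by 0.30. In CLEC16A KO, ARPC1A had few counts for its TPM, 2639 for 205 TPM, where ARPC2 had 21028 for 302 TPM. The call of ARPC1A held in all 15 alternatives, those on TPM included. ACTR3B, another ACTR3 relative, fell by 0.62 (SE 0.11, edgeR adjusted p = 8.81e-05), the opposite direction to the higher ACTR3C level in KO. ARPC5 fell by 0.19, but its adjusted p was 0.0618 without WT replicate 2 and its direction turned in limma on log2(TPM + 1), with 0.26 (adjusted p = 0.383), where ARPC3 did not pass either (adjusted p = 0.119). ACTR3 did not pass in limma with no filter (adjusted p = 0.103). ARPC1B had no call in edgeR (log2 fold change 0.20, adjusted p = 0.594), but in limma on log2(TPM + 1) it was 1.30 higher in KO on the log2 scale (adjusted p = 0.00158), with 121 ± 6.22 TPM in KO and 49.9 ± 14.9 TPM in WT (SD, n = 3 each).

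In the NKX2-2 experiment, of the 10 genes ARPC1B alone passed, and it fell (log2 fold change -0.69, SE 0.22, edgeR adjusted p = 0.0288), where 33.4% of all genes tested passed. It rests on 158 counts in KO and 274 in WT, few for 50.2 ± 0.605 TPM in KO and 58.8 ± 1.59 TPM in WT (SD, n = 3 each), so counts and TPM of ARPC1B do not match. In limma on log2(TPM + 1) the change was -0.22 on the log2 scale and did not pass (adjusted p = 0.0645). In edgeR the adjusted p was 0.107 without KO replicate 3, 0.0717 without WT replicate 2 and 0.0777 without WT replicate 3. Per length, ACTR3C had a lower level there than ACTR3B, with 0.937 and 1.25 TPM in NKX2-2 KO and WT, where ACTR3B had 6.41 and 7.12 TPM.

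For RARRES2, chemerin receptors and genes known to respond to retinoic acid were set beside it. In the CLEC16A experiment, 7 of the 9 were measurable, 5 rose, 1 fell and 1 did not pass, with a median log2 fold change of 1.19, where 45% of all genes tested passed. CCRL2, the receptor that presents chemerin, rose to 36.4 ± 2.17 CPM in CLEC16A KO, against 5.80 ± 1.07 CPM in CLEC16A WT (SD, n = 3 each), a log2 fold change of 2.65 (SE 0.12, edgeR adjusted p = 4.82e-14). The signalling receptors were below the filter in both groups, with 20 and 10 counts over the KO and WT libraries for CMKLR1 and 2 and 2 for GPR1. Of the retinoid genes, CYP26A1, which breaks down retinoic acid, rose by 2.72, PLIN2, a lipid droplet coat gene, by 1.98, the retinal reductase gene DHRS3 by 1.19 and RARRES1 by 1.01. STRA6, the retinol uptake receptor gene, fell by 0.95. The gene that did not pass was RARB, a retinoic acid receptor gene (log2 fold change -0.03, SE 0.22, edgeR adjusted p = 0.933).

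In the NKX2-2 experiment 8 of the 9 were measurable, 4 rose, 1 fell and 3 did not pass, with a median log2 fold change of 0.44. Of all genes tested 33.4% passed, 16.6% higher and 16.8% lower in KO. CYP26A1 rose by 3.45 on the log2 scale, GPR1 by 3.40, STRA6 by 1.40 and the retinoic acid receptor gene RARB by 0.89. GPR1 rests on 142 counts in KO and 14 in WT. CCRL2 fell by 0.56 there (SE 0.12, edgeR adjusted p = 0.00344). The genes that did not pass were RARRES1 (log2 fold change -0.02, edgeR adjusted p = 0.930), PLIN2 (-0.24, 0.196) and DHRS3 (-0.15, 0.293). RARRES2 was higher in KO in each experiment, while CCRL2 and STRA6 went in different directions in the CLEC16A and NKX2-2 experiments, a difference that was not tested.

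**Figure D4:**
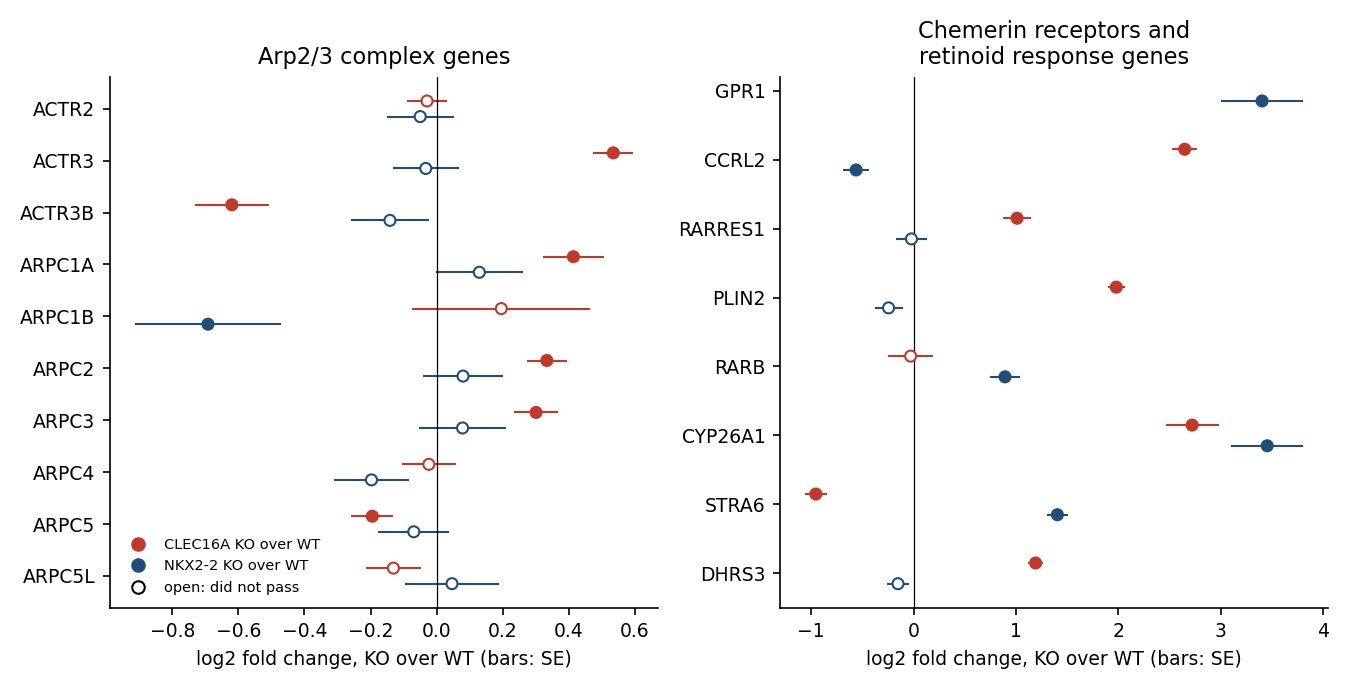
Log2 fold change, KO over WT, with its SE of the Arp2/3 genes (left) and of the measurable chemerin and retinoid genes (right) in the CLEC16A (red) and NKX2-2 (blue) experiments. Filled points passed the test and open points did not: 6 and 1 of 10 Arp2/3 genes passed, and 6 of 7 and 5 of 8 chemerin and retinoid genes.

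RARRES2, known to be abundant in liver, was set beside markers of other cell types. Liver markers were higher with it in CLEC16A KO and mesenchyme markers in NKX2-2 KO, whereas mesenchyme markers were lower in CLEC16A KO and the liver sums overlapped in the NKX2-2 experiment. The summed level of 12 liver markers was 17119 to 18764 CPM in CLEC16A KO and 6896 to 7196 CPM in CLEC16A WT, with 10 of the 12 passing as higher in KO and none as lower. In the NKX2-2 experiment it was 10953 to 13647 CPM in KO and 10607 to 12340 CPM in WT, which overlap, with 4 markers higher and 2 lower. The summed level of 10 mesenchyme markers was 49.0 to 57.2 CPM in CLEC16A KO and 171 to 181 CPM in CLEC16A WT, with none higher and 8 lower, and 6921 to 7924 CPM in NKX2-2 KO and 2660 to 2981 CPM in NKX2-2 WT, with 9 higher and none lower. The summed level of 10 islet endocrine markers was 14154 to 16445 CPM in CLEC16A KO and 27290 to 30132 CPM in CLEC16A WT, with none higher and 10 lower. For NKX2-2 it was 1099 to 1167 CPM in KO and 2945 to 3466 CPM in WT, with 2 higher and 6 lower. Over all genes tested, 23.7% passed as higher and 21.3% as lower in CLEC16A KO, against 16.6% and 16.8% in NKX2-2 KO. No marker of the 3 lists was at 0 in any group. In bulk libraries fewer cells of a type and less RNA per cell cannot be told apart, and the part of these cell types in the RARRES2 levels was not tested.

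**Figure D5:**
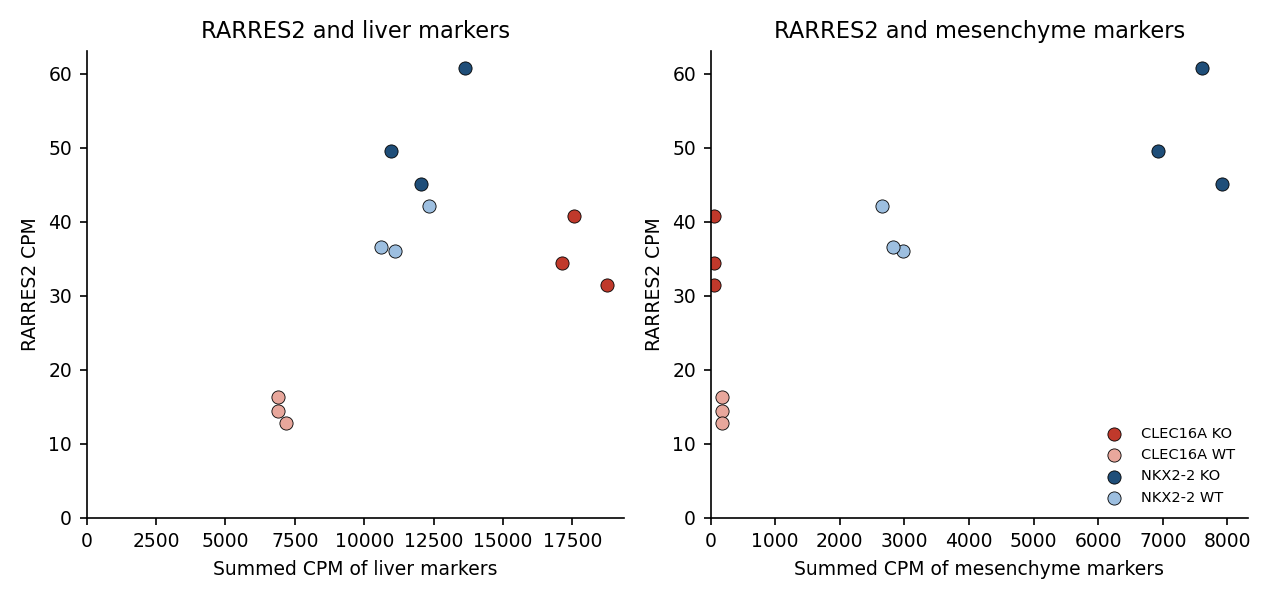
CPM of RARRES2 against the summed CPM of 12 liver markers (left) and of 10 mesenchyme markers (right) in each of the 12 libraries, coloured by group. CLEC16A KO lies above CLEC16A WT on both axes of the liver panel, and NKX2-2 KO above NKX2-2 WT on both axes of the mesenchyme panel. The mesenchyme sum is lower in CLEC16A KO than in CLEC16A WT, and the liver sums of NKX2-2 KO and WT overlap.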

How the data were processed

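For each experiment the authors deposited a table of raw counts per gene and a table of TPM. The tools that the submitters' processing notes name are HISAT2 2.2.1, StringTie 2.1.7 and fastp 0.22.0, and the build is hg38. For the counting program, the annotation release and strand, nothing is given in the sources used here.

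Counts were tested within each experiment with edgeR 4.0.16 in R 4.3.3 (quasi-likelihood F test, robust, TMM, filterByExpr) over all genes, with p-values adjusted after Benjamini and Hochberg and called below 0.05. The log2 fold change divided by the root of F, without its sign, is given as SE. CPM uses the same TMM-scaled library sizes. Intervals and floors cover counting error only. DESeq2 1.42.0, limma 3.58.1 on log2(TPM + 1) and log2(TPM + 0.1), other scalings and filters, a replicate block and each left-out library were alternatives. Pseudoautosomal genes were used once, without the 45 rows of their Y copies. Positions are from GENCODE 29, and start sequences from RefSeq, for 5 of the 6 genes.

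Replicates differed beyond sampling noise. Named were the 6 genes, both targeted genes, flanking genes with at least 5 CPM in a group, list genes with at least 1 CPM and the genes most like LRRC61. Genes and lists were chosen with earlier results of these data known. The edgeR fit was tested on simulated data, where in both experiments somewhat more of its calls were false than the threshold allows and not every changed gene was recovered, which bears on calls near the threshold.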

Additional observations from a re-analysis of the deposited data

Results flagged for a closer look

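The 6 genes and the 24 named flanking genes were examined. Those below had every KO library on one side of every WT library in the CLEC16A experiment and on the other side in the NKX2-2 experiment. Groups did not overlap, in either direction, for 53.8% and 45.5% of all genes tested in the 2 experiments. How many genes did so in opposite directions was not counted. LRRC61 and ZBED6CL were chosen by their CLEC16A values, so nothing is read from their place here. The difference between the experiments was not tested for any of them. LRRC61 and ZBED6CL, higher in CLEC16A KO, had log2 ratios of mean CPM of -0.26 and -0.47 in NKX2-2 KO over WT. Of the flanking genes, TMEM176B had a log2 ratio of -0.26 in the NKX2-2 experiment and 0.59 in the CLEC16A experiment, TMEM176A -0.46 and 0.75, and AOC1 -0.69 and 1.34. The opposite order was found for ZNF467, with 0.35 in the NKX2-2 experiment and -2.97 in the CLEC16A experiment, for SSPO with 0.67 and -1.88, for ASIC3 with 0.41 and -0.60, and for SMARCD3 with 1.32 and -0.40. TMEM176B, ZNF467 and ASIC3, like LRRC61, did not pass the edgeR test in the NKX2-2 experiment.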

How the results depend on the processing

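Of the 6 genes, 3 passed in the NKX2-2 experiment, against 5 with a replicate block (LRRC61 at adjusted p = 0.0367 and ZNF775 at 0.0193 in addition), 0 in limma on log2(TPM + 1) with no filter, and 2 to 4 with 1 library left out. No direction among the 6 turned in any alternative run, and ACTR3C passed in none. To look for pairing, the log2 CPM of each library was taken as a deviation from the mean of its own group, gene by gene. These deviations, not the levels themselves, were correlated between KO and WT libraries. For same-numbered libraries they correlated at 0.0104, 0.00969 and -0.0381 in the CLEC16A experiment, where the numbers showed no pairing. In the NKX2-2 experiment they correlated at 0.148, 0.0421 and 0.406. There KO replicate 3 went with WT replicate 3, and correlated at -0.25 with both other WT libraries. WT replicate 3 correlated at -0.30 and -0.15 with KO replicates 1 and 2. Replicates 1 and 2 did not pair by number, with 0.224 and 0.141 across numbers. Deviations within a group cancel out, so these correlations depend on each other and the negative ones are partly built in. The main test used no block. With the block 8763 genes passed in the CLEC16A experiment and 8037 in the NKX2-2 experiment, against 8985 and 5824 without it. With limma on unfiltered TPM 3547 passed in the NKX2-2 experiment. Flanking genes within 0.5 Mb that passed were 6 of 10 tested in the CLEC16A experiment and 2 of 8 in the NKX2-2 experiment. Within 1 Mb they were 19 of 31 and 8 of 28, where 45% and 33.4% of all genes tested passed. Leaving out 1 library gave 16 to 19 and 5 to 9 within 1 Mb. Of the Arp2/3 genes 0 passed in the NKX2-2 experiment by limma on log2(TPM + 1) or log2(TPM + 0.1), and 0 to 1 with 1 library left out; ARPC5 turned to 0.26 in the CLEC16A experiment under all 3 limma settings. The pattern of LRRC61 was met by 2 genes when 0 counts were required in CLEC16A WT and by 13 under the limits added later. Of 45 further values that did not pass, 18 turned sign and 12 passed in some alternative. Depth limits ACTR3C, with 16 to 43 counts in each NKX2-2 library. Where a call changed, the cause was not tested.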
